A study of Mus musculus with 15 samples.

Results

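The 10 genes that prepare and fire origins of DNA replication were followed through 15 mouse RNA-sequencing libraries. They are Mcm2, Mcm3, Mcm4, Mcm5, Mcm6, Mcm7, Cdt1, Cdc6, Cdc45 and Mcm10, and they make up 10 of the 54838 genes in the deposited tables. The list was taken from the known machinery of origin licensing and firing, and it was chosen with earlier results of these data known. Before a cell copies its DNA, the origin recognition complex, Cdc6 and Cdt1 load rings built of the Mcm2 to Mcm7 proteins onto origins, which licenses each origin to fire. Cdc45 and the GINS proteins then join the ring to form the active helicase, with the help of Mcm10, and geminin together with the destruction of Cdt1 keeps origins from being licensed again in the same cycle. Many of these genes are transcribed under E2F factors in cycling cells and are low in resting ones, and alveolar type 2 (AT2) cells, the surfactant-producing epithelium of the lung, divide rarely in the adult unless the lung is injured.

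All libraries came from 4T1 cells, a mammary carcinoma line that grows in the lungs of BALB/c mice, or from lung epithelial cells of BALB/c hosts carrying 4T1 cells. The 4T1 in vivo group was isolated from lungs 7 days after injection into the tail vein, and the 4T1 in vitro group was grown in a dish in DMEM with serum. The epithelial cells were sorted 7 days after tail-vein injection of 800000 labelling 4T1 cells, which mark the cells around them, and 5 lungs were pooled for each replicate. Their titles name EpCAM, an epithelial surface protein, and they form a niche group that also bears the treatment label shSox9, a niche group with the label control, and a distal lung group with the label control. The sources used here do not say which cells carried the hairpin, and they give no age or genotype of the hosts. Each of the 5 groups had 3 libraries. For the 4T1 groups no label states that replicates were separate cultures or animals, so their p-values measure only the spread between these libraries. In bulk libraries such as these, fewer cells of a type and less RNA per cell cannot be told apart.

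Promoters are printed for 5 of the genes because all 10 genes differed in the same direction between niche and distal epithelium, as given further on. RefSeq windows on GRCm38.p6, from 250 bases before to 50 bases after a start site, matched 9 of the 10 genes by symbol (all but Mcm4) and numbered 10, since Mcm7 had 2. They were searched on both strands for 4 E2F words, TTTCCCGC, TTTGGCGC, TTTCGCGC and TTTGCCGC. Capitals mark these words on either strand, and each sequence is written 5′ to 3′ on the strand of its gene. The windows are chr1:128359656-128359955 (minus strand) for Mcm6, chr8:75109259-75109558 (plus strand) for Mcm5, chr1:20820263-20820562 (minus strand) for Mcm3, chr11:98907901-98908200 (plus strand) for Cdc6 and chr2:5012742-5013041 (minus strand) for Mcm10.
Mcm6: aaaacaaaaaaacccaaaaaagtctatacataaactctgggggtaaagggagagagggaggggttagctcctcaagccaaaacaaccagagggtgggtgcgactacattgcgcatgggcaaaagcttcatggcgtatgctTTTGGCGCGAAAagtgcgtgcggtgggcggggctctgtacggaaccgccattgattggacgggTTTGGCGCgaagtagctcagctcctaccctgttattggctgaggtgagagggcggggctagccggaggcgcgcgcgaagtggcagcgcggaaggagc
Mcm5: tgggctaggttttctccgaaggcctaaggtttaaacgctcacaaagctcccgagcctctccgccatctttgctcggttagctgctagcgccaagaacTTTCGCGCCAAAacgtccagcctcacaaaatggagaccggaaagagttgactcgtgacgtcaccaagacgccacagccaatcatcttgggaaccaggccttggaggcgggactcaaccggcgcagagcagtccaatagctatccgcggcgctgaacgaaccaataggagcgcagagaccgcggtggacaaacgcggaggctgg
Mcm3: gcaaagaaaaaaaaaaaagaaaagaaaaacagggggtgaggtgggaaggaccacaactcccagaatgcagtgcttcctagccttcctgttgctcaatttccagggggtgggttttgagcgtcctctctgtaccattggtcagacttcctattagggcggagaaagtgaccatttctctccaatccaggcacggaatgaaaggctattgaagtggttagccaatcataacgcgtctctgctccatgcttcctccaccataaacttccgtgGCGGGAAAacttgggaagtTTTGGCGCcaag
Cdc6: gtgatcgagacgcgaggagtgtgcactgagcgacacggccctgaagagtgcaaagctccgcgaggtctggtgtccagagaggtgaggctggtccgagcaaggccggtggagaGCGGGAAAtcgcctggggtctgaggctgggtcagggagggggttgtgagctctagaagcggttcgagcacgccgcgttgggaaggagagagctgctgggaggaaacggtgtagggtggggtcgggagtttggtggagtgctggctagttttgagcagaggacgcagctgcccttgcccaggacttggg
Mcm10: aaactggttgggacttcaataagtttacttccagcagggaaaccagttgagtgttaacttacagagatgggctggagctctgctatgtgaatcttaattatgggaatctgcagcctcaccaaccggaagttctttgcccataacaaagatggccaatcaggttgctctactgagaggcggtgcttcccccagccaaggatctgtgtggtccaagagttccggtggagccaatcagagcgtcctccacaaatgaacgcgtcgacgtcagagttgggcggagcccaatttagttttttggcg

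An E2F word stood in 6 of the 10 windows, against 744 of all 32851 promoter windows of this length (2.26%). The 6 windows were those of Mcm3, Mcm5, Mcm6, Cdt1 and Cdc6 and 1 of the 2 windows of Mcm7. Mcm6 held 3 words, at positions -110, -106 and -47 from the start site, and Mcm5 held 2, at -153 and -149. In both genes neighbouring words on opposite strands overlapped, so that the capitals run on past the length of a single word. Mcm3 held 2 words, at 19 and 38 bases after the start, and Cdc6 held 1, at -138. The Mcm10 window, shown for contrast since this gene had the largest fold between niche and distal epithelium, held none of these words whole. It ended in TTTGGCG, the start of the word TTTGGCGC, and the base beyond the window was not searched. CCAAT, searched with its reverse complement ATTGG, stood in 8 of the 10 windows and in 37.4% of all windows, and the GC box GGGCGG in 8 of 10 and in 35.7%. The cell cycle homology region, searched as TTTGAA and TTCGAA, stood in 3 of 10 windows and in 19.2% of all. These are matches of letters and describe the windows only.

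Total counts per library ran from 15907316 to 30421705. A count of 0 therefore allows up to 3 counts, or 0.0986 to 0.189 CPM (counts scaled to library size), as counting error only. Every licensing gene was far above that, the lowest being Mcm10 with 44 counts in a distal library. Markers of the labelled cells were present but differed in level, Epcam averaging 28.1 ± 4.86 CPM in niche libraries labelled shSox9, 56.0 ± 23.1 CPM in niche libraries and 104 ± 11.3 CPM in distal libraries. The 5 epithelial markers did not all follow Epcam. By mean CPM 2 were higher and 3 lower in niche than in distal libraries, and likewise in shSox9-labelled than in niche libraries. Their sums overlapped, at 841 to 1354 CPM in libraries labelled shSox9, 638 to 1386 CPM in niche and 1079 to 1208 CPM in distal libraries. The 8 AT2 markers, led by Sftpc, summed to 32656 to 59446 CPM in niche libraries labelled shSox9, to 9528 to 12012 CPM in niche libraries and to 236599 to 316639 CPM in distal libraries. The 3 leukocyte genes (Ptprc, Coro1a and Laptm5) summed to 85.0 to 296, 735 to 854 and 192 to 332 CPM in the same groups. The 7 fibroblast and mural genes summed to 10172 to 16323, 12236 to 14010 and 3689 to 4275 CPM, and none of these marker genes was at 0 counts in any epithelial group. RNA of 4T1 cells was followed with 21 named protein-coding genes that had at least 10 CPM in each 4T1 library and a distal mean under 2% of the 4T1 in vivo mean, such as Hmga2, Fosl1 and Spp1, the last also a macrophage gene. Taking the excess over distal epithelium in 4T1 cells in vivo as 100%, the median of these genes stood at 22.5%, 16.6% and 12.4% in libraries labelled shSox9 and at 20.2%, 20.2% and 12.2% in niche libraries. Sox9 itself stood at 84.5, 60.2 and 36.9 CPM in libraries labelled shSox9, against 61.7, 57.1 and 32.8 CPM in niche libraries, and did not differ by edgeR (log2 fold change 0.26, SE 0.27, adjusted p = 0.548). In 4T1 cells in vivo Sox9 stood at 313, 360 and 262 CPM, and in distal libraries at 5.63, 6.42 and 6.84 CPM. The part of 4T1 RNA in the niche and shSox9-labelled values of Sox9 was not tested. The Sox9 transcript in these libraries therefore gives no check of that label.

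The 6 ring subunits were compared by TPM, which are scaled for library size and transcript length and are the scale used here to compare one gene with another. Summed over Mcm2 to Mcm7, their level was 1115 ± 58.7 TPM in 4T1 cells in vivo and 1190 ± 154 TPM in vitro (SD, n = 3 in every group). It was 228 ± 78.6 TPM in niche libraries labelled shSox9, 375 ± 60.6 TPM in niche libraries and 70.3 ± 11.9 TPM in distal libraries. The 4T1 sums overlapped each other, the shSox9-labelled libraries ran from 147 to 304 TPM just below the niche range of 308 to 426 TPM, and the distal libraries lay between 59.9 and 83.3 TPM. On log2(TPM + 1) the median of all genes tested was itself higher than in distal libraries, by 0.48 in niche and by 0.44 in shSox9-labelled libraries. Gaps to the distal group are thus wider in TPM than in CPM, here and for the TPM levels that follow. The folds given further on come from counts.

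Within the ring the transcripts were not equal, although the proteins occupy it in equal numbers. Mcm6 was the highest of the 6 in every 4T1 and niche library and in 2 of the 3 libraries labelled shSox9, whereas Mcm7 was the highest in all 3 distal libraries and in the shSox9-labelled replicate 3. By mean TPM Mcm6 reached 310 ± 16 in 4T1 cells in vivo, 288 ± 41.4 in vitro, 51.3 ± 20 in libraries labelled shSox9, 89.4 ± 15.6 in niche and 11.6 ± 2.70 in distal libraries. As a share of the summed ring TPM, Mcm6 made up 27.8% ± 0.260 in 4T1 cells in vivo against 24.2% ± 0.369 in vitro, and 23.8% ± 0.328 in niche against 16.4% ± 1.73 in distal epithelium. The share of Mcm4 was 10.9% ± 0.638 in niche and 17.1% ± 2.04 in distal libraries, and that of Mcm7 was 15.3% ± 1.26 in niche and 22.9% ± 2.57 in distal libraries. For all 3 subunits the niche and distal ranges of the share did not overlap. Mcm2 kept 13.4% to 15.6% of the sum on average in each of the 5 groups. The highest subunit exceeded the lowest by 2.81 to 2.94 times in 4T1 cells in vivo, 2.40 to 2.55 times in vitro, 1.66 to 2.07 times in libraries labelled shSox9, 2.01 to 2.29 times in niche libraries and 1.57 to 2.25 times in distal libraries.

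**Figure D1:**
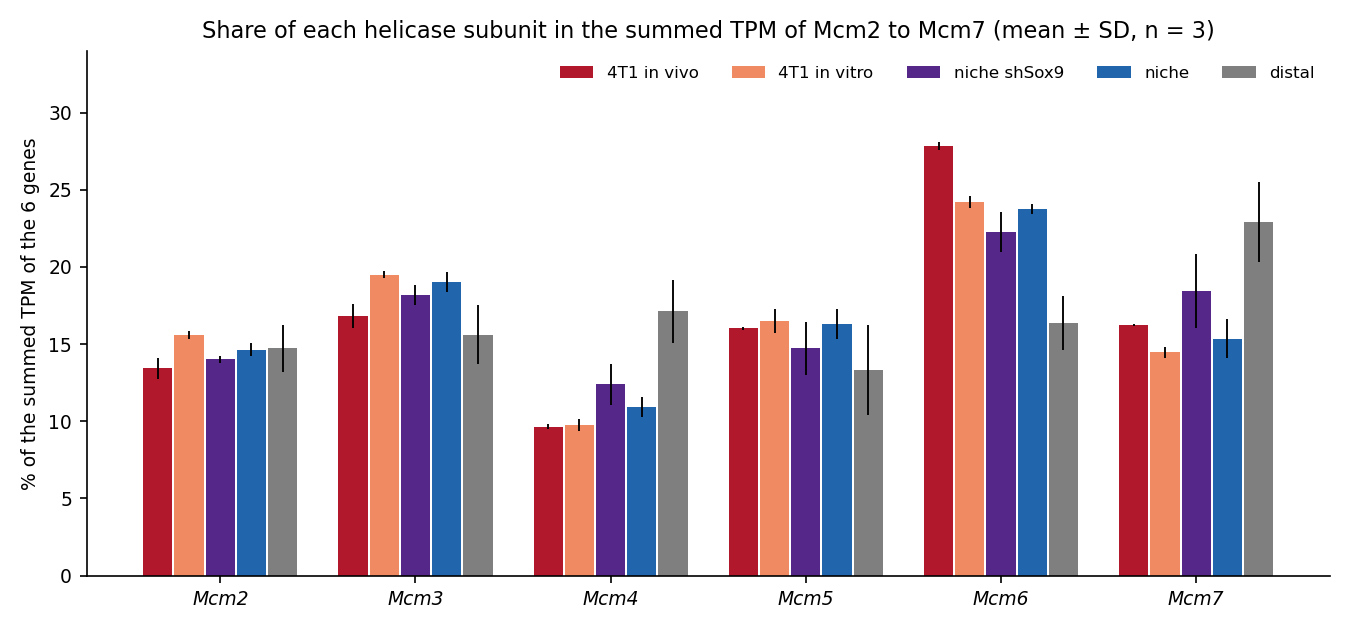
Share of each ring subunit (x axis, Mcm2 to Mcm7) in the summed TPM of the 6 genes (y axis, %), as mean and SD over 3 libraries for 4T1 in vivo, 4T1 in vitro, niche libraries labelled shSox9, niche and distal libraries. Mcm6 takes the largest share in both 4T1 groups and in niche epithelium (23.8%), and Mcm7 in distal epithelium (22.9%).

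The loading and firing factors were less abundant than the ring subunits in every group. Cdt1, which brings the ring to the origin, averaged 63.8 ± 2.60 TPM in 4T1 cells in vivo and 60.9 ± 5.41 TPM in vitro, and 15.6 ± 7.86 TPM in libraries labelled shSox9, 24.1 ± 3 TPM in niche and 4.85 ± 1.59 TPM in distal libraries. Cdc6, the ATPase that loads it, averaged 81.7 ± 5.79 TPM in vivo and 87.8 ± 14 TPM in vitro, and 10.8 ± 4.92, 19.3 ± 3.31 and 2.64 ± 0.410 TPM in the shSox9-labelled, niche and distal libraries. Cdc6 thus stood above Cdt1 in all 6 libraries of 4T1 cells and below it in all 9 epithelial libraries. Cdc45 averaged 50.6 ± 1.76 TPM in vivo and 39.0 ± 3.77 TPM in vitro, and Mcm10 49.7 ± 8.53 TPM in vivo and 50.4 ± 5.52 TPM in vitro, so that the pair lay within its spread in vivo while Mcm10 was the higher in vitro. In distal epithelium Mcm10 at 2.30 ± 1.04 TPM, Cdc6 and Cdc45 at 2.88 ± 1.04 TPM lay within their spread of each other. TPM depends on the transcript length that the authors' program estimated, which varied by up to 1.31 times between group means for Mcm10 and by up to 1.13 times for each of the other 9 genes.

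Niche epithelium was set against distal epithelium in libraries that both carry the control label, which asks how the epithelium labelled as niche differs from that labelled as distal. All 10 licensing genes were higher in niche than in distal libraries, by 2.29-fold for Mcm4 to 5.11-fold for Mcm10. By edgeR's quasi-likelihood test, with adjustment over 17640 genes, 10 of 10 passed an adjusted p of 0.05 as higher, where 28.5% of all genes tested did. The niche and distal values of 10 of 10 did not overlap in that direction, as for 33.8% of all genes. Their median log2 fold change was 1.93, against 0.02 over all genes tested. Levels below are CPM after TMM scaling over all 15 libraries, in the order of the replicates.

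Among the ring subunits, Mcm6 stood at 163, 178 and 131 CPM in niche libraries and at 30.1, 26.3 and 42.3 CPM in distal libraries. The groups lay well apart, with a log2 fold change of 2.33 (SE 0.26, edgeR adjusted p = 2.07e-05). Mcm3 stood at 109.7, 120.2 and 101 CPM in niche and 22.0, 24.8 and 29.0 CPM in distal libraries, a log2 fold change of 2.19 (SE 0.22, adjusted p = 1.08e-05). Mcm5 was at 99.5, 119.9 and 83.9 CPM in niche and 19.6, 19.7 and 38.5 CPM in distal libraries. Distal replicate 3 stood well above the other distal libraries here, and the log2 fold change of 2.04 had the widest error of the 10 genes (SE 0.31, adjusted p = 0.000217). Mcm2 was at 114, 127 and 100.3 CPM in niche and 34.5, 27.8 and 38.8 CPM in distal libraries, a log2 fold change of 1.82 (SE 0.21). Mcm7 and Mcm4 had the smallest rises. Mcm7 was at 95.0, 96.5 and 69.8 CPM in niche and 29.4, 33.1 and 41.4 CPM in distal libraries (log2 fold change 1.40, SE 0.18). Mcm4 was at 89.3, 99.0 and 82.5 CPM in niche and 43.0, 36.3 and 45.0 CPM in distal libraries (log2 fold change 1.19, SE 0.15).

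Of the loading factors, Cdc6 stood at 32.9, 40.01 and 26.6 CPM in niche and 6.97, 6.12 and 8.37 CPM in distal libraries, with a log2 fold change of 2.28 (SE 0.29, adjusted p = 5.58e-05). Its lowest niche library was well above its highest distal one. Cdt1 was at 32.8, 34.1 and 28.1 CPM in niche and 7.58, 9.15 and 14.2 CPM in distal libraries, a log2 fold change of 1.69 (SE 0.30, adjusted p = 0.000548, the largest of the 10). Of the firing factors, Mcm10 was at 25.2, 21.3 and 23.8 CPM in niche and 2.95, 5.02 and 6.53 CPM in distal libraries, which is its log2 fold change of 2.35 (SE 0.29). Cdc45 was at 17.3, 16.04 and 14.9 CPM in niche and 3.82, 5.31 and 6.68 CPM in distal libraries, a log2 fold change of 1.68 (SE 0.23). Distal replicate 3 was the highest of the distal libraries for all 10 genes.

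**Figure D2:**
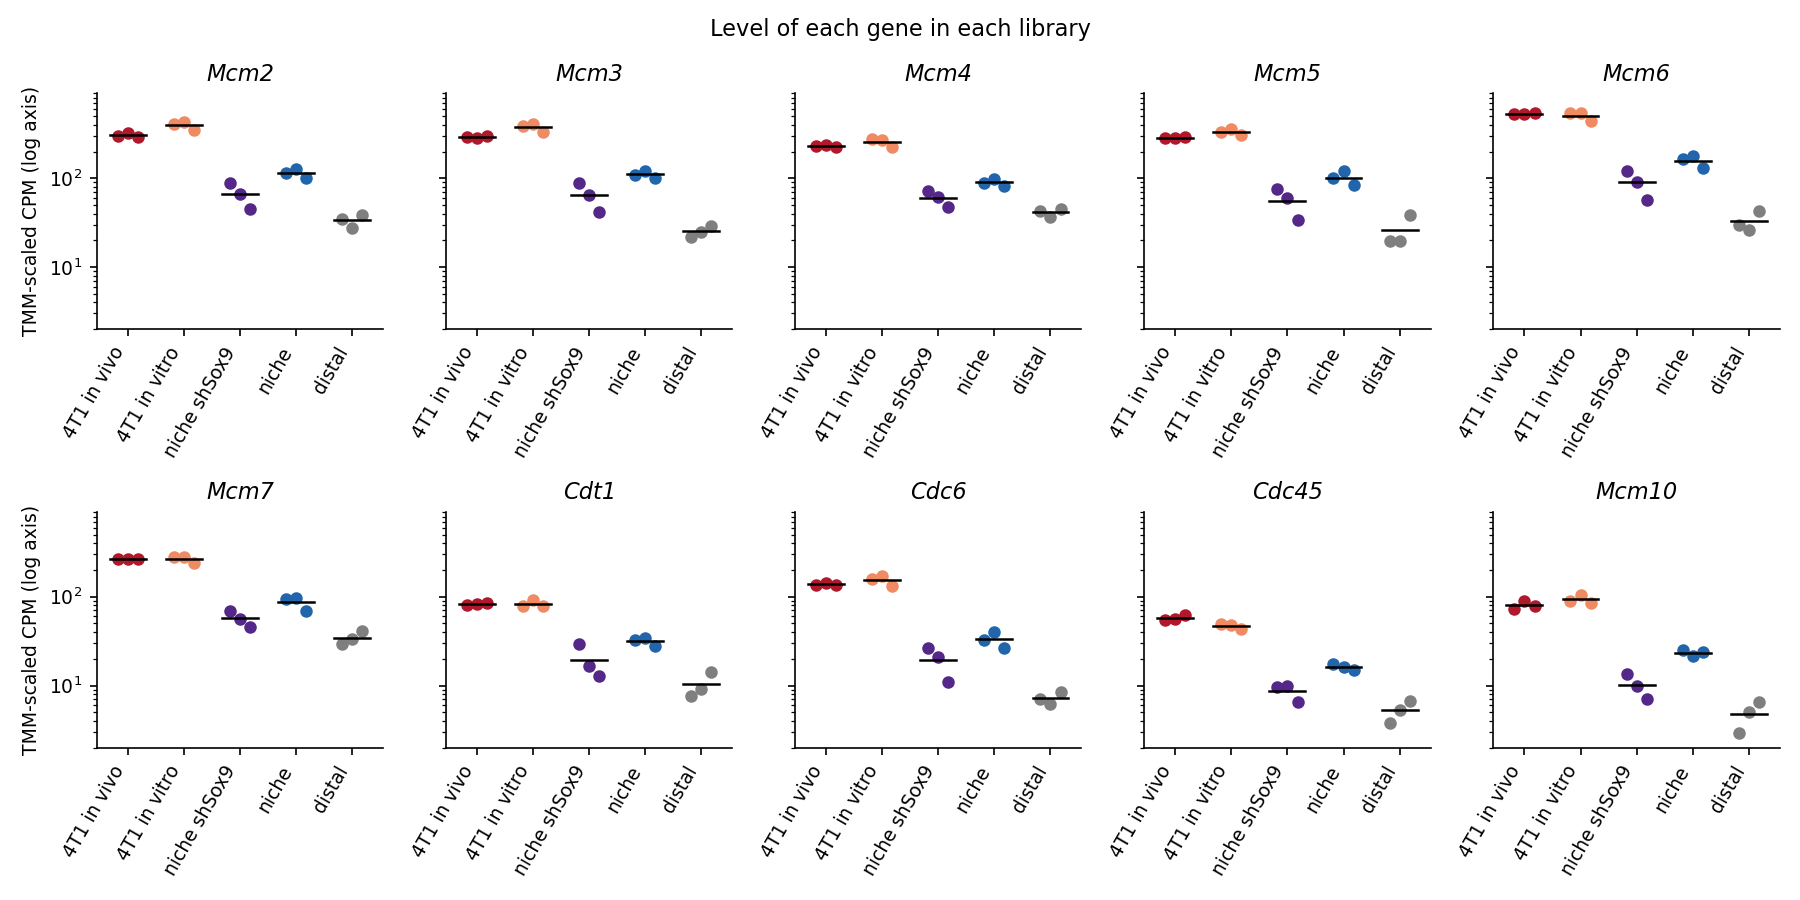
TMM-scaled CPM (y axis, log scale) of each of the 10 genes in each library, with a point per library and a line at the group mean, for 4T1 in vivo, 4T1 in vitro, niche libraries labelled shSox9, niche and distal libraries. Niche points lie above distal points for all 10 genes, and 4T1 points above both.

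Several other signals moved with this rise, and their part in the result was not tested. The median 4T1 panel gene was at 12.2% to 20.2% of its in vivo excess in the niche libraries and at -0.23% to 0.55% in the distal libraries, the panel having been chosen for low distal values. Marker lists of other cells did not all move one way. By mean CPM all 3 general leukocyte genes were higher in niche than in distal libraries, Ptprc at 200 ± 16.7 CPM in niche and 87.0 ± 27.0 CPM in distal libraries. Of 10 macrophage and monocyte genes 9 were higher, such as Adgre1, a macrophage surface receptor, at 122 ± 11.9 CPM in niche and 12.6 ± 4.55 CPM in distal libraries. The summed list was nevertheless lower in niche libraries (4400 to 4929 CPM) than in distal libraries (10707 to 14280 CPM), since Lyz2, which AT2 cells also express, stood at 2420 ± 451 CPM in niche and 12484 ± 1782 CPM in distal libraries. Of 9 lymphocyte genes 7 were lower in niche libraries, their sum being 32.7 to 39.2 CPM in niche and 51.0 to 88.4 CPM in distal libraries, and 5 of 6 neutrophil genes were lower, with overlapping sums. Of 7 fibroblast and mural genes 5 were higher, such as Col1a1 at 6532 ± 671 CPM in niche and 1345 ± 135 CPM in distal libraries. The other 2 were not, Dcn standing at 252 ± 47.3 CPM in niche and 349 ± 76.5 CPM in distal libraries and Lum at 13.3 ± 8.76 CPM in niche and 14.6 ± 6.64 CPM in distal libraries. Of 6 endothelial genes 5 were higher, with overlapping sums (57.9 to 75.6 CPM in niche and 39.4 to 73.0 CPM in distal libraries).

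The excess of each licensing gene over its distal mean can be put on the same percentage scale as the panel. In niche replicates 1, 2 and 3 the median of the 10 genes was 26.5%, 29.8% and 21.9% of the excess seen in 4T1 cells in vivo. The median panel gene was lower in each, at 20.2%, 20.2% and 12.2%, and 9, 10 and 10 of the 10 genes stood above it. Mcm3 was highest in niche replicate 1 (31.8%) and 3 (28.4%) and Mcm5 in replicate 2 (36.0%), while Cdc6 in replicates 1 and 3 and Cdc45 in replicate 2 were lowest. The upper quartile of the panel was 27.5%, 30.5% and 17.4%, above which lay 4, 4 and 8 of the genes. The 24 mitosis genes had medians of 25.4%, 28.0% and 17.0% in these libraries.

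In the 3 libraries labelled shSox9 the order was turned. The median licensing gene was at 17.0%, 10.6% and 3.28% of the in vivo excess, and the median panel gene at 22.5%, 16.6% and 12.4%. Only Cdt1 (26.1%) and Mcm3 (23.4%) in replicate 1 stood above the panel median, and none of the 10 did in replicates 2 and 3. The mitosis genes had medians of 17.0%, 19.97% and 10.9%. These percentages are a description with no test, and the panel genes themselves varied widely within a library, from 0% to 86.6% in shSox9-labelled replicate 1.

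**Figure D3:**
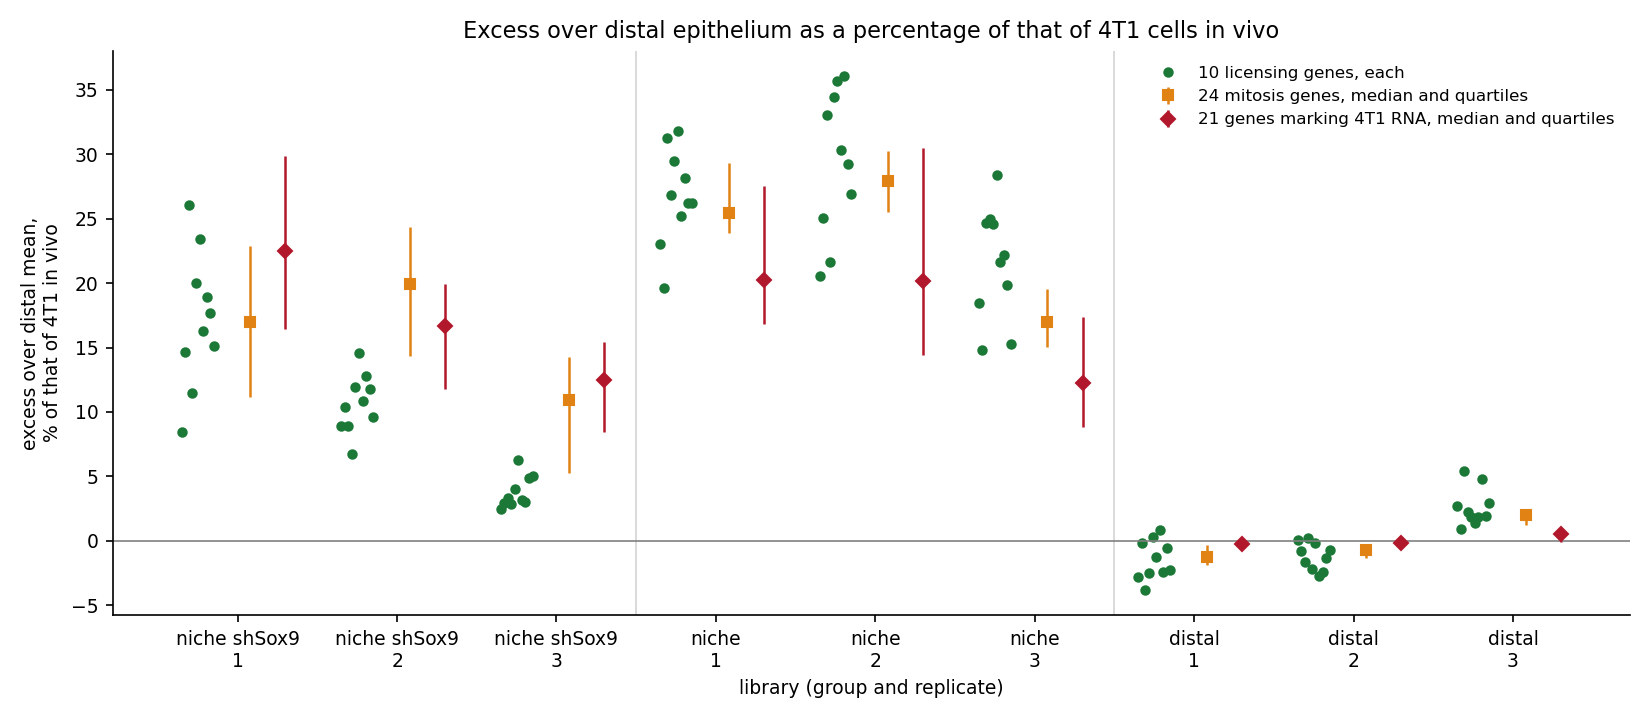
Excess over the distal mean as a percentage of the excess in 4T1 cells in vivo (y axis) in each library labelled shSox9, niche library and distal library (x axis). Points are the 10 licensing genes, squares and diamonds the medians with quartiles of 24 mitosis genes and of 21 genes marking 4T1 RNA; licensing genes lie mostly above the diamonds in niche libraries and mostly below them in libraries labelled shSox9.

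The niche libraries labelled shSox9, set against the niche libraries with the control label, address what accompanies the hairpin. Of the 10 genes 7 were lower, Mcm2, Mcm3, Mcm4, Mcm6, Mcm7, Cdc45 and Mcm10, where 10.8% of all 17640 genes tested were lower by edgeR. Mcm10 fell most, 2.30-fold, and Mcm4 least, 1.49-fold. None of the 10 was higher, where 9.68% of all genes were. For Mcm5, Cdc6 and Cdt1 the adjusted p missed 0.05. The values of 9 of the 10 did not overlap, Cdt1 being the exception, as for 19.8% of all genes. The median log2 fold change of the 10 was -0.78, against 0.02 over all genes tested.

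Mcm10 was at 13.5, 9.93 and 7.00 CPM in libraries labelled shSox9, against 25.2, 21.3 and 23.8 CPM in niche libraries. The groups were clearly apart, at a log2 fold change of -1.20 (SE 0.27, adjusted p = 0.00954). Cdc45 was at 9.69, 9.93 and 6.56 CPM in libraries labelled shSox9, against 17.3, 16.04 and 14.9 CPM in niche libraries, a log2 fold change of -0.88 (SE 0.22, adjusted p = 0.0162). For the ring subunits the gap was narrower, and shSox9-labelled replicate 1 lay close to the lowest niche library. Mcm6 was at 121, 91.3 and 57.2 CPM in libraries labelled shSox9, against 163, 178 and 131 CPM in niche libraries (log2 fold change -0.81, SE 0.24, adjusted p = 0.0359). Mcm2 was at 87.9, 66.1 and 44.7 CPM in libraries labelled shSox9, against 114, 127 and 100.3 CPM in niche libraries (log2 fold change -0.78, SE 0.21, adjusted p = 0.0208). Mcm3 was at 87.5, 64.1 and 42.0 CPM in libraries labelled shSox9, against 109.7, 120.2 and 101 CPM in niche libraries (log2 fold change -0.77, SE 0.21, adjusted p = 0.0232). In all 3 subunits replicate 1 was the highest and replicate 3 the lowest of the libraries labelled shSox9.

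Mcm7 was at 69.5, 56.7 and 46.1 CPM in libraries labelled shSox9, against 95.0, 96.5 and 69.8 CPM in niche libraries, so that its highest labelled library all but touched its lowest niche library (log2 fold change -0.60, SE 0.17, adjusted p = 0.0323). Mcm4 was at 72.4, 62.0 and 47.5 CPM in libraries labelled shSox9, against 89.3, 99.0 and 82.5 CPM in niche libraries (log2 fold change -0.57, SE 0.15, adjusted p = 0.0173). The 3 genes that missed the threshold had similar differences, with errors wider than those of the called genes other than Mcm10. Mcm5 was at 75.3, 59.3 and 33.7 CPM in libraries labelled shSox9, against 99.5, 119.9 and 83.9 CPM in niche libraries (log2 fold change -0.85, SE 0.30, adjusted p = 0.0657). Cdc6 was at 26.4, 20.8 and 10.99 CPM in libraries labelled shSox9, against 32.9, 40.01 and 26.6 CPM in niche libraries (log2 fold change -0.77, SE 0.27, adjusted p = 0.0617). Cdt1 was at 29.1, 16.8 and 12.7 CPM in libraries labelled shSox9, against 32.8, 34.1 and 28.1 CPM in niche libraries, and only here did replicate 1 reach into the niche range (log2 fold change -0.70, SE 0.28, adjusted p = 0.107).

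The number of genes called lower rested on single libraries. It was 10 without shSox9-labelled replicate 1, 3 without shSox9-labelled replicate 2, 4 without shSox9-labelled replicate 3, 1 without niche replicate 1 and 2 without niche replicate 2. It was 6 to 8 without niche replicate 3 or any distal library. All 10 fold changes stayed negative in each of these fits, and Mcm10 was called in each of them. With the replicate letter or number of the titles as a block 8 were called, distal replicate 1, whose title has R1 and no letter, being set with the letter A. With limma on log2(TPM + 0.1) 2 were called, and without the filter on low counts 10 were.

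**Figure D4:**
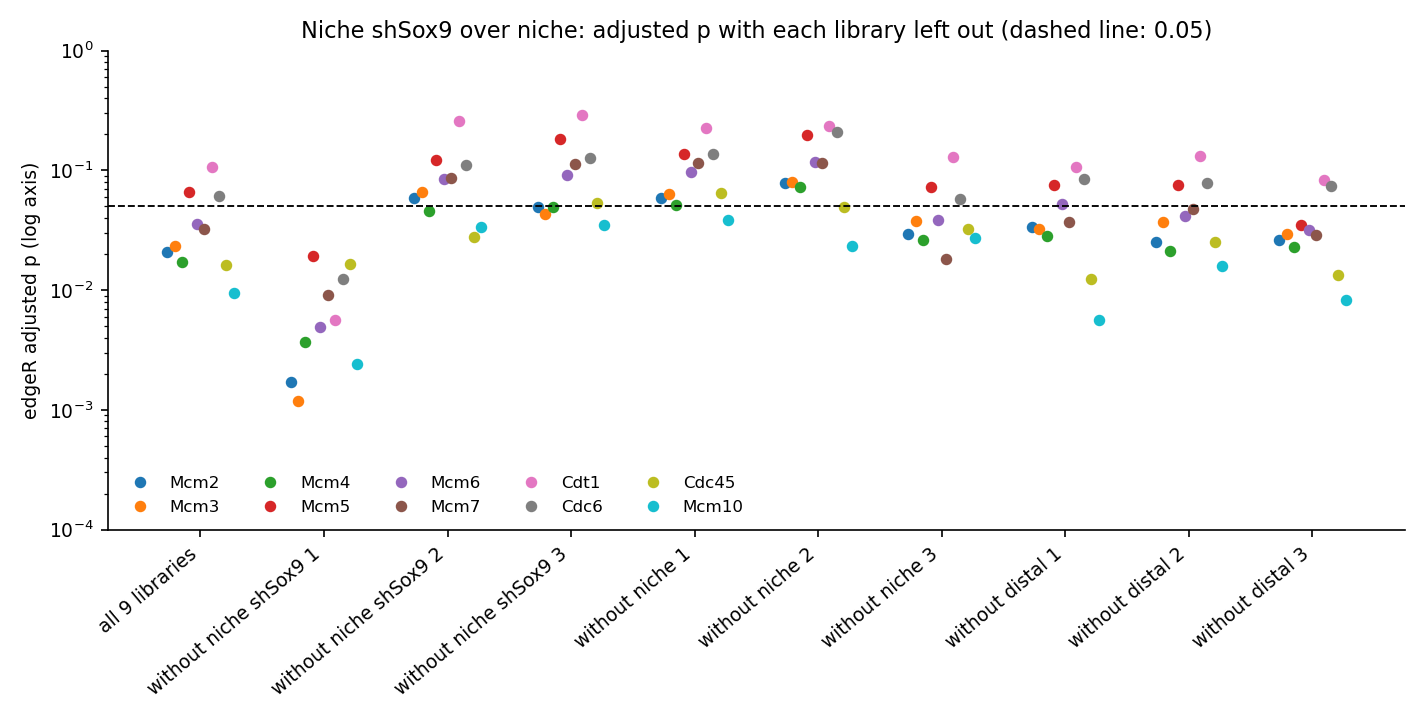
Adjusted p of edgeR (y axis, log scale) for each of the 10 genes in the niche libraries labelled shSox9 over niche libraries, with all 9 epithelial libraries and with each one left out in turn (x axis); the dashed line is 0.05. All 10 genes lie below the line without shSox9-labelled replicate 1, and Mcm10 alone does without niche replicate 1.

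Some marker lists of other cells moved with these falls and others did not, and their part in the result was not tested. Adgre1 was at 16.6 ± 14.2 CPM in libraries labelled shSox9 and 122 ± 11.9 CPM in niche libraries, and Mrc1, a macrophage receptor, at 22.6 ± 18.5 CPM in libraries labelled shSox9 and 158 ± 31.5 CPM in niche libraries. Ptprc was at 46.1 ± 22.8 CPM in libraries labelled shSox9 and 200 ± 16.7 CPM in niche libraries. By mean CPM all 10 macrophage and monocyte genes, all 3 general leukocyte genes, 7 of 9 lymphocyte genes and all 6 endothelial genes were lower in libraries labelled shSox9. In contrast, 4 of 6 neutrophil genes and 5 of 7 fibroblast and mural genes were higher. The endothelial sums overlapped, at 32.5 to 61.2 CPM in libraries labelled shSox9 and 57.9 to 75.6 CPM in niche libraries. The fibroblast and mural genes overlapped in sum (10172 to 16323 CPM in libraries labelled shSox9 and 12236 to 14010 CPM in niche libraries), as did the medians of the 4T1 panel. Summed AT2 markers were higher in every library labelled shSox9 than in any niche library.

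Against distal epithelium, the niche libraries labelled shSox9 still had all 10 licensing genes higher. By edgeR 10 of 10 passed, where 21.7% of all genes tested were higher, and for 8 of 10 the libraries did not overlap, against 25.8% of all genes. The distal libraries are those used for the niche comparison, so the comparisons are not independent. Mcm6 had the largest log2 fold change at 1.52 (SE 0.25, adjusted p = 0.000539) and Cdc6 followed at 1.51 (SE 0.29, adjusted p = 0.00134). Mcm4 had the smallest at 0.62 (SE 0.15, adjusted p = 0.00547). The values of Mcm5 and Cdt1 overlapped. Mcm5 was at 75.3, 59.3 and 33.7 CPM in libraries labelled shSox9 and 19.6, 19.7 and 38.5 CPM in distal libraries, a log2 fold change of 1.19 (SE 0.31, adjusted p = 0.00852). Cdt1 was at 29.1, 16.8 and 12.7 CPM in libraries labelled shSox9 and 7.58, 9.15 and 14.2 CPM in distal libraries, a log2 fold change of 1.00 (SE 0.29, adjusted p = 0.0174). The median of the 10 was 1.10, against -0.00 over all genes tested. The 4T1 panel median was higher in libraries labelled shSox9 than in distal libraries, as given above. By mean CPM all 7 fibroblast and mural genes and 8 of 10 macrophage and monocyte genes were higher too. The values of these 8 overlapped, Adgre1 running from 7.30 to 32.9 CPM in libraries labelled shSox9 and from 8.56 to 17.5 CPM in distal libraries. The summed macrophage and monocyte list, which Lyz2 leads, was lower, at 1802 to 2579 CPM in libraries labelled shSox9 and 10707 to 14280 CPM in distal libraries. All 3 general leukocyte genes, all 9 lymphocyte genes, 5 of 6 endothelial genes and 4 of 6 neutrophil genes were lower. The part of these signals in the result was not tested. Cdc45 lost its call without shSox9-labelled replicate 2 or distal replicate 1, and Cdt1 without shSox9-labelled replicate 1 or distal replicate 1 or 2.

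4T1 cells recovered from the lung, set against 4T1 cells in the dish, were compared next. Of the 10 genes 1, Cdc45, was higher in vivo and 2, Mcm2 and Mcm3, were lower, where 27% of 14022 genes tested were higher and 24% lower by edgeR, so neither share of licensing genes exceeded that of all genes. The values did not overlap for 1 gene as higher (31.8% of all genes) and for 3 as lower (28.9% of all genes). The median log2 fold change of the 10 was -0.14, against 0.01 over all genes tested. RNA of host cells was higher in the in vivo libraries, and its part in the results of this comparison, those for other gene lists included, was not tested. The 10 macrophage and monocyte genes summed to 58.8 to 522 CPM in vivo and 10.3 to 12.6 CPM in vitro, and the 3 general leukocyte genes to 11.5 to 51.9 CPM in vivo and 0.671 to 1.17 CPM in vitro. In both lists in vivo replicate 3 stood far above the other in vivo libraries, and without it Cdc45 lost its call as higher while 2 licensing genes were still called lower. Lyz2 ranged from 44.8 to 471 CPM in vivo and averaged 0.0700 CPM in vitro, and Sftpc averaged 57.3 ± 21.1 CPM in vivo and 1.83 ± 0.938 CPM in vitro.

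Cdc45 was at 54.8, 56.0 and 61.9 CPM in vivo and 49.9, 47.5 and 43.3 CPM in vitro, a log2 fold change of 0.30 (SE 0.09, adjusted p = 0.0241). That is 1.23-fold, and the call was lost in 4 of the 6 fits that left out 1 library. Mcm2 was at 301, 322 and 291 CPM in vivo and 406, 428 and 346 CPM in vitro (log2 fold change -0.36, SE 0.10, adjusted p = 0.0122). Mcm3 was at 290.0, 284 and 299 CPM in vivo and 384, 409 and 329 CPM in vitro (log2 fold change -0.36, SE 0.09, adjusted p = 0.0101). Replicate 3 of the in vitro group was the lowest of its group for 9 of the 10 genes, and without it 5 genes were called lower. Mcm5, at 286, 286 and 288 CPM in vivo and 332, 356 and 310.4 CPM in vitro, did not overlap but missed the threshold (log2 fold change -0.21, SE 0.08, adjusted p = 0.0519). Mcm6 was at 529.5, 525 and 536 CPM in vivo and 539, 544 and 442 CPM in vitro, a log2 fold change of 0.07 (SE 0.09, adjusted p = 0.589). Cdt1 had the smallest difference, at 80.4, 82.3 and 84.7 CPM in vivo and 78.1, 90.7 and 78.5 CPM in vitro (log2 fold change 0.01, SE 0.09, adjusted p = 0.961). The remaining 4 genes, Mcm4, Mcm7, Cdc6 and Mcm10, had log2 fold changes of -0.14, -0.02, -0.14 and -0.20 with adjusted p from edgeR of 0.240, 0.882, 0.277 and 0.151.

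4T1 cells in vivo, set against niche epithelium of the same kind of host, place the carcinoma cells and their neighbours on one scale. All 10 genes were higher in 4T1 cells, by 2.56-fold for Mcm4 to 4.16-fold for Cdc6. Of the 18242 genes tested in this fit 28.9% were higher by edgeR, and 10 of 10 licensing genes were; 10 of 10 did not overlap, against 33.3% of all genes. Cdc6 was at 136, 142 and 137 CPM in 4T1 cells in vivo and 32.9, 40.01 and 26.6 CPM in niche libraries, a log2 fold change of 2.06 (SE 0.23, adjusted p = 1.17e-06). Cdc45 had 1.84 (SE 0.17), Mcm10 1.79 (SE 0.21) and Mcm6 1.75 (SE 0.22) as log2 fold changes. The median of the 10 was 1.55, against -0.10 over all genes tested. Since 4T1 panel genes were also present in niche libraries, at 12.2% to 20.2% by the median, these differences are between libraries, and the part of 4T1 RNA in the niche values was not tested.

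**Figure D5:**
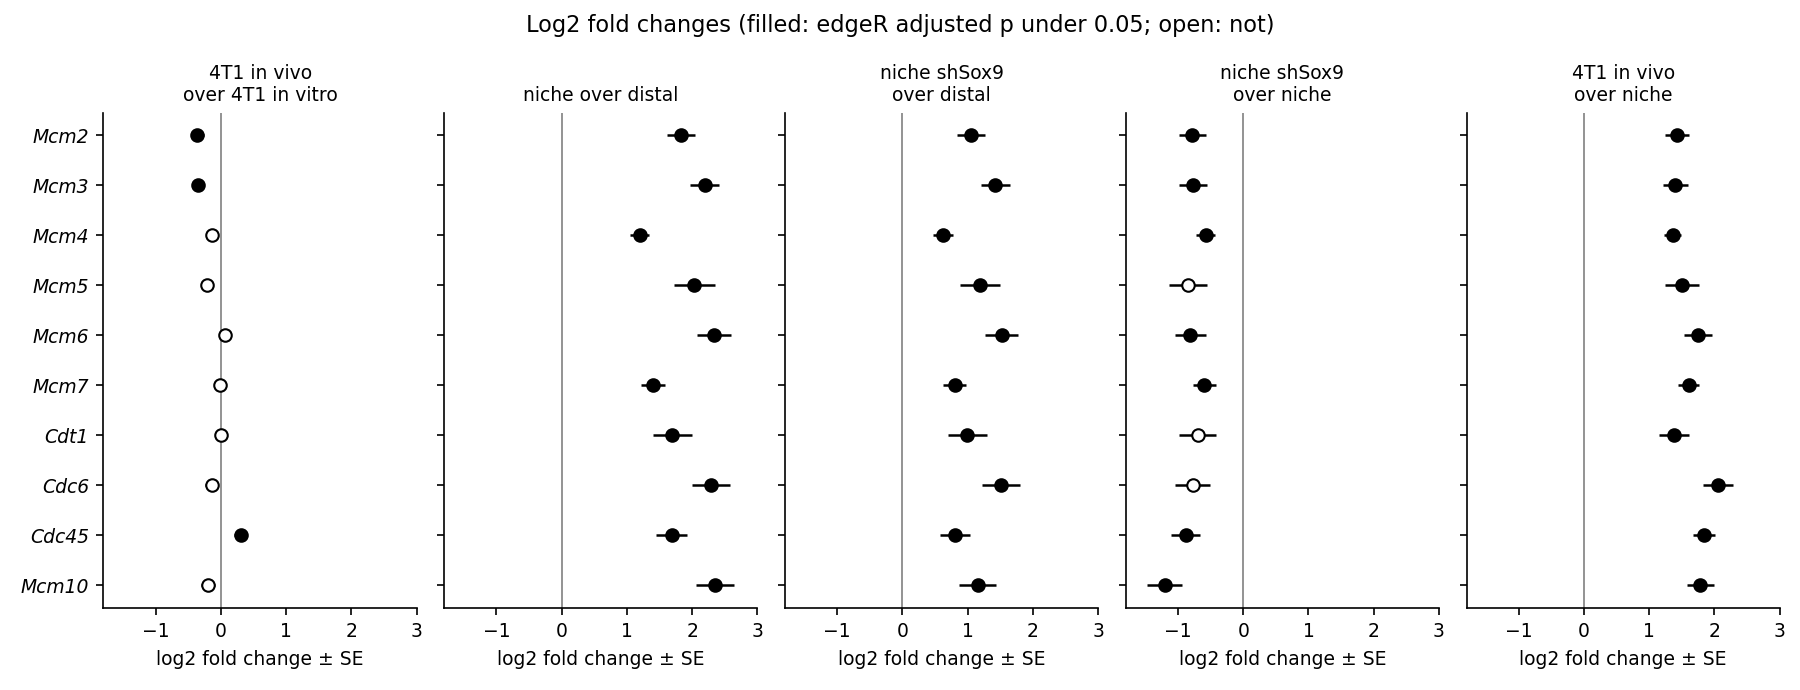
Log2 fold change with its SE (x axis) of each of the 10 genes (y axis) in 5 comparisons, each named with the first group over the second. Filled points passed an edgeR adjusted p of 0.05; all 10 are filled and positive in niche over distal, in libraries labelled shSox9 over distal and in 4T1 in vivo over niche, and 3 are filled in 4T1 in vivo over 4T1 in vitro.

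The rest of the licensing pathway moved less evenly. Counts for the lists that follow are to be read against the shares of all genes tested. These were 28.5% higher and 25.8% lower in niche over distal epithelium, and 9.68% higher and 10.8% lower in libraries labelled shSox9 over niche libraries. In 4T1 cells in vivo over in vitro they were 27% higher and 24% lower. Of the 6 genes of the origin recognition complex, which marks origins throughout the cycle, 3 were higher in niche than in distal epithelium and none lower. Orc1, the subunit whose level follows the cell cycle, averaged 3.90 ± 1.19 TPM in niche and 0.723 ± 0.266 TPM in distal libraries, a log2 fold change of 2.17 (SE 0.31, edgeR adjusted p = 0.000140). Orc6 (log2 fold change 1.13) and Orc2 (0.76) also rose, while Orc4 (0.20, adjusted p = 0.275) and Orc5 (0.07, adjusted p = 0.695) had the largest adjusted p. The median of the 6 was 0.49, against 1.93 for the 10 licensing genes. In libraries labelled shSox9 over niche libraries 1 of 6 was lower (10.8% of all genes), Orc6 at -0.49 (adjusted p = 0.0170), and Orc1 at -0.61 missed the threshold (adjusted p = 0.158). In 4T1 cells in vivo over in vitro 3 were lower, Orc2 at -0.66, Orc1 at -0.61 and Orc4 at -0.48, with Orc1 at 14.5 ± 0.605 TPM in vivo and 19.6 ± 1.75 TPM in vitro.

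All 15 GINS and firing genes were higher in niche than in distal epithelium, with a median log2 fold change of 1.29. Gins1, a GINS subunit, had 2.06, Mtbp 1.49 and Tipin 0.91 with the smallest adjusted p (2.03e-05 to 4.99e-05), and Gins3 (0.49) and Donson (0.50) the largest (0.0368 and 0.0370). Of the 15, 2 were lower in libraries labelled shSox9 than in niche libraries, near the 10.8% of all genes, Gins1 at -1.20 (SE 0.21, adjusted p = 0.00254) and Gins2 at -0.41 (SE 0.12, adjusted p = 0.0318), whereas Mtbp was at 0.01 (adjusted p = 0.985). In 4T1 cells in vivo over in vitro 2 were higher and 6 lower. Gins2 led the rises at a log2 fold change of 0.82 (SE 0.09), and Recql4 (-0.75) and Dbf4 (-0.52), the partner of the firing kinase Cdc7, fell. For Gins2, another GINS subunit singled out after its values were seen, the scale mattered. It averaged 63.3 ± 12.5 TPM in niche and 6.64 ± 0.631 TPM in distal libraries, but 42.6 ± 4.95 CPM in niche and 24.8 ± 2.53 CPM in distal libraries. Its estimated effective length was 1065 bases in niche and 3695 bases in distal libraries on average. That difference in length adds to the shift in TPM of the median gene between these groups, given above.

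Of 11 listed regulators of licensing, among them its inhibitors and factors that degrade Cdt1, 7 were higher in niche than in distal epithelium. Geminin (Gmnn), the inhibitor of Cdt1, averaged 37.5 ± 4.59 TPM in niche and 8.01 ± 2.14 TPM in distal libraries, a log2 fold change of 1.65 (SE 0.21, edgeR adjusted p = 5.47e-05). Dtl (2.24) and Skp2 (2.03), which guide ubiquitin ligases to Cdt1, also rose, and Cul4a, the scaffold of one of these ligases, was at 0.02 (adjusted p = 0.879). Gmnn averaged 18.1 ± 3.14 TPM in libraries labelled shSox9, and it was 1 of 2 genes lower there than in niche libraries (log2 fold change -1.07, SE 0.20, adjusted p = 0.00354). The other was Fbxo5, an inhibitor of the anaphase-promoting complex, at -1.54 (SE 0.29, adjusted p = 0.00347). Skp2 stood at -0.11 (adjusted p = 0.761). Of these 11 genes 1 was higher and 7 lower in 4T1 cells in vivo than in vitro, led by Ddb1 at -0.73, with Gmnn at -0.16 (adjusted p = 0.238).

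The MCM relatives outside the ring stood below every ring subunit in each group by mean CPM, and neither tested one passed in niche over distal epithelium. Mcm8, a recombination helicase, averaged 6.26 ± 0.731 CPM in niche and 3.54 ± 0.262 CPM in distal libraries (log2 fold change 0.89, SE 0.37, adjusted p = 0.0588). Mcm9, its partner, averaged 8.70 ± 0.717 CPM in niche and 12.2 ± 1.51 CPM in distal libraries (log2 fold change -0.42, SE 0.19, adjusted p = 0.0875). Elsewhere Mcm9 was lower in libraries labelled shSox9 than in distal libraries (log2 fold change -0.63, SE 0.19, edgeR adjusted p = 0.0205). Mcm8 was higher in 4T1 cells in vivo than in niche libraries (log2 fold change 1.55, SE 0.28, edgeR adjusted p = 0.000183). Mcmdc2 stayed under the filter on low counts.

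Genes of the replication fork and of nucleotide supply were higher in niche than in distal epithelium in 30 of 30 cases, with a median log2 fold change of 1.21. Fen1, the flap nuclease, had 1.72, Rrm2 of ribonucleotide reductase 2.15 and the sliding clamp Pcna 0.97, and Pold2 at 0.51 had the largest adjusted p (0.00716). Of the 30, 18 were lower and none higher in libraries labelled shSox9 than in niche libraries, with Fen1 at -1.14 (adjusted p = 0.000942), Rfc2 at -0.72 and Pcna at -0.71 (adjusted p = 0.000909), and Rpa3 at -0.12 (adjusted p = 0.459). The 24 mitosis genes were all higher in niche than in distal epithelium (median log2 fold change 2.10), and 6 of 24 were lower in libraries labelled shSox9 than in niche libraries, among them Aurkb (-1.35) and Cdk1 (-1.07), while Ccnb2 (-0.04) and Cenpe (0.03) had the largest adjusted p (0.889 and 0.940). The median of the mitosis genes in that comparison was -0.38, beside -0.78 for the licensing genes and -0.70 for the fork genes. In 4T1 cells in vivo over in vitro 2 of 24 mitosis genes were higher and 14 lower, led by Aurka at -0.81, beside 5 higher and 8 lower of the 30 fork genes, where 27% of all genes were higher and 24% lower.

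Among 27 E2F and cell cycle entry genes, 26 were tested in the epithelial libraries. In niche over distal epithelium 17 were higher and 3 lower, where 28.5% and 25.8% of all genes were. Ccne1, cyclin E, had a log2 fold change of 2.37 (SE 0.21), the repressor E2f8 2.79 (SE 0.28) and Cdk6 1.70 (SE 0.16). In libraries labelled shSox9 over niche libraries 6 were lower and 1 higher, where 10.8% and 9.68% of all genes were by edgeR. Ccne1 was at -1.46 (SE 0.20, adjusted p = 0.000564), the pocket protein Rbl1 at -1.08 (SE 0.13, adjusted p = 0.000272) and E2f3 at 0.02 (adjusted p = 0.941). In 4T1 cells in vivo over in vitro 7 of 24 tested were higher and 9 lower, where 27% and 24% of all genes were. Ccnd2, a D-type cyclin, fell by 1.64 on the log2 scale and Cdkn1a, a cyclin-dependent kinase inhibitor, rose by 1.18 (SE 0.11, adjusted p = 4.01e-05).

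The profile of the 10 genes over the 15 libraries was compared with that of every tested gene by the root mean square difference of centred log2 CPM. The nearest genes outside the list were Arhgap11a (0.14 on the log2 scale), Uhrf1 and Chaf1a (0.16 each), Tk1 (0.17), Gtse1 and Cdca2 (0.18 each), Tbc1d31 and Kif14 (0.19 each), and Rad54l and Pclaf (0.20 each), where the median of all 18242 genes was 1.64. The members themselves lay between 0.13 for Mcm2 and 0.38 for Mcm4 from their own mean. Mcm4, Mcm10 (0.34) and Cdc6 (0.34) were the least typical. Mcm4 had the smallest contrast between niche and distal epithelium, and Mcm10 and Cdc6 were among the 3 genes with the largest.

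The genes lie on 7 chromosomes of GRCm38, and all are protein-coding. Mcm3 (chromosome 1, 20802968 to 20820312, ENSMUSG00000041859) and Mcm6 (chromosome 1, 128331590 to 128359664, ENSMUSG00000026355) are on the minus strand, as are Mcm10 (chromosome 2, 4989714 to 5012791, ENSMUSG00000026669) and Mcm2 (chromosome 6, 88883474 to 88898780, ENSMUSG00000002870). Mcm4 (chromosome 16, 15623897 to 15637400, ENSMUSG00000022673) and Cdc45 (chromosome 16, 18780447 to 18811987, ENSMUSG00000000028) are on the minus strand too. Mcm5 (chromosome 8, 75109569 to 75128439, ENSMUSG00000005410), Cdt1 (chromosome 8, 122568015 to 122573554, ENSMUSG00000006585) and Cdc6 (chromosome 11, 98907801 to 98923940, ENSMUSG00000017499) are on the plus strand. Mcm7 (chromosome 5, 138164583 to 138172422, minus strand, ENSMUSG00000029730) overlaps Cops6 and Ap4m1 on the opposite strand and hosts the miRNA genes Mir25, Mir93 and Mir106b, which had 0 counts in all 15 libraries. Cdc45 overlaps Ufd1 on the opposite strand. Cdt1 lies within the gene model Gm20388 on its own strand, which had 1725 counts summed over the 15 libraries against 15092 for Cdt1. No source used here gives the strand setting of the counting, and reads from such overlaps could not be told apart for Mcm7 and Cdc45. Counts of Mcm7 were not whole in any of the 15 libraries and those of Mcm6 in 11, as the authors' program gives where reads map to more than 1 gene.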

How the data were processed

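RNA was measured in 15 libraries read at 75 bases. The authors deposited, per gene and library, expected counts, TPM and effective lengths made with RSEM on GRCm38, per the submitters' processing notes, which also name DESeq2; FPKM were not used. No source used here gives the aligner, annotation release, versions or strand setting. Gene names and positions came from GENCODE M21, which held 54809 of the 54838 gene IDs.

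The deposited expected counts were rounded to whole numbers, filtered with filterByExpr, scaled with TMM and tested with the quasi-likelihood F-test of edgeR 4.0.16 (R 4.3.3), calling genes at a Benjamini-Hochberg adjusted p under 0.05, adjusted across every gene in the fit. SEs were derived from the fold change and F. The 6 4T1 libraries had a fit of their own, the 9 epithelial libraries shared one estimate of spread, and 4T1 in vivo was set against niche in a fit of all 15. DESeq2 1.42.0, limma 3.58.1 on log2(TPM + 1) and log2(TPM + 0.1), other size factors, no filter, a replicate block and leaving out each library were alternatives. The fits were also run on simulated counts, in which most genes had the same mean in all groups. Many genes differ between the real groups, so that run is not used as support here.

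The 10 genes and the lists of other genes were chosen with earlier results of these data known. From each list the genes named were taken from the 3 with the smallest and the 2 with the largest adjusted p, and Orc1 and Gmnn were always given. Genes most alike the 10 were taken from all tested genes by the smallest root mean square difference. Libraries of one group differed by more than sampling noise (chi-square per degree of freedom 8.27 to 43.4), so all were counted. Titles carry a replicate letter, except that distal replicate 1 has R1, which was set with the letter A. These were not taken to pair libraries, because no label states that they do. The correlations of same-lettered deviations ran from -0.05 to 0.11. Between libraries labelled shSox9 and niche libraries they were 0.11, 0.08 and 0.08. There each shSox9-labelled library correlated best with the niche library of its own letter, so a shared batch is not excluded. The fit with the letter as a block is given above.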

Additional observations from a re-analysis of the deposited data

How the results depend on the processing

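The 10 licensing genes kept all their calls in niche over distal epithelium and in 4T1 in vivo over niche epithelium in every alternative run, and no gene changed sign where it was called. In 4T1 in vivo over in vitro, the 1 gene called higher became 0 without the filter on low counts and 0 with all 15 libraries in one fit, and 0 to 1 with single libraries left out. The 2 called lower became 1 with limma on log2(TPM + 1), 1 on log2(TPM + 0.1) and 0 with all 15 libraries, and 2 to 5 with single libraries left out. In libraries labelled shSox9 over niche, the 7 called lower became 10 without the filter on low counts, 9 with DESeq2, 9 with all 15 libraries, 6 with the 6 libraries of the 2 groups alone, 5 with limma on log2(TPM + 1) and 2 on log2(TPM + 0.1), and 1 to 10 with single libraries left out. In libraries labelled shSox9 over distal, 8 to 10 were called higher. With the replicate block, in which distal replicate 1 had no letter of its own, the calls were 1 higher and 3 lower in 4T1 in vivo over in vitro, 8 lower in libraries labelled shSox9 over niche, and 10 higher in each other comparison. On the log2 TPM scale the counts over all genes moved in niche over distal, to 9212 higher and 2397 lower with a pseudocount of 1 and 9237 and 2371 with 0.1, against 5025 and 4554 in edgeR. In libraries labelled shSox9 over distal it moved to 8789 and 1962, and 8790 and 1901, against 3833 and 3886. These TPM scales moved the median log2 fold change of all genes to 0.48 and 0.60 in niche over distal and to 0.44 and 0.55 in libraries labelled shSox9 over distal; relative to them the licensing genes stayed higher. Leaving out niche replicate 1 left 940 higher and 1298 lower genes in libraries labelled shSox9 over niche, against 1707 and 1909. The causes were not tested. With 3 libraries a group, single libraries decided the shSox9 calls, and intervals from counts cover counting error only.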
